A study of Mus musculus with 6 samples.

Results

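The genes described here are 8 genes of fatty acid oxidation and of the response to the nuclear receptor PPAR-alpha, chosen by name: Ppara, Cpt1a, Cpt2, Acadl, Acadm, Pdk4, Angptl4 and Plin2. Each was found once among the 54012 genes listed, and 7 of the 8 averaged 1 TPM or more and were tested, as 13458 genes were in all. TPM is an abundance corrected for transcript length, so that levels can be compared between genes. It is set to an equal sum in every library, so each value is relative to the other genes of its library. RNA was sequenced from the intestine, in the series title the small intestine, of 3 wild type (WT) mice and 3 mice labelled TLR4ΔIEC, all 8 to 12 weeks old. Strain, sex, diet, feeding state, the stretch of intestine and the promoter that drives the deletion are not given in the sources used here.

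Fatty acids are burnt in mitochondria after long chains have been coupled to carnitine by CPT1 at the outer membrane and released again by CPT2 inside. Acyl-CoA dehydrogenases of graded chain length then open each round of beta-oxidation. PPAR-alpha binds fatty acids, pairs with a retinoid X receptor (RXR) on direct repeats of a short motif, and switches on the enzymes of this route, the kinase PDK4 that spares glucose, the lipoprotein lipase inhibitor ANGPTL4 and the lipid droplet coat PLIN2. In the small intestine, where dietary fat arrives in bulk, the receptor is known as a sensor of fat in the villus.

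Tlr4, the targeted gene, had 0.65, 0.57 and 0.70 TPM in WT, against 1.29, 1.22 and 4.81 TPM under the label TLR4ΔIEC, so that label is not borne out by a lower level in whole tissue, and directions below are between libraries as labelled. Genes at 1 TPM or more numbered 12221 in TLR4ΔIEC replicate 2 and 13197 to 13634 in the other libraries. Epithelial genes defined the tissue in all 6 libraries, with Vil1, a brush border protein, at 856 to 1380 TPM. The enterocyte list of 10 genes summed to 17780 to 20624 TPM in WT and to 22042 to 27231 TPM in TLR4ΔIEC. In 5 of its 10 genes every library labelled TLR4ΔIEC lay above every WT library, as in 24.1% of all tested genes. The reverse order was found in 3.53% of all tested genes. The ileal list was likewise higher in 7 of 8 genes (3880 to 8751 against 12138 to 38558 TPM) and the Paneth list lower in 8 of 9 (83190 to 96584 against 14621 to 58920 TPM). Of 9 tested proximal genes 2 were higher and 4 lower in this sense, and the list summed to 231 to 980 against 195 to 361 TPM. B and plasma cell genes were lower in 5 of 8 (8428 to 9583 against 1131 to 4310 TPM). No tested gene separated the groups in the lists of fat cells (summing to 89.3 to 152.7 against 93.0 to 141.1 TPM), smooth muscle (281 to 737 against 197 to 697), macrophages (199 to 224 against 86.0 to 272), endothelium (85.6 to 124.8 against 52.6 to 99.0), T and NK cells (80.8 to 306 against 74.4 to 145), pancreas (8.63 to 12.1 against 6.30 to 14.9) and hepatocytes (3.07 to 9.92 against 4.64 to 7.19). Within the pancreas list Prss2 and Cpa1 were listed at 0 throughout. What these shifts contribute to the values below was not tested, and in whole tissue fewer cells of a type and less RNA per cell cannot be told apart.

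None of the 7 tested genes passed an adjusted p of 0.05 in limma, a linear model fitted to log2(TPM + 1) of all genes at once, where 0.119% of all tested genes passed. Acadl, Plin2 and Cpt2 had an unadjusted p under 0.05, as 21.2% of all tested genes did. The point estimates were all above 0, as were those of 9163 of all 13458 tested genes. They ran from 0.25 for Acadm to 1.22 for Acadl on the log2 scale, with a median of 0.62 beside 0.16 over all tested genes. In Ppara, Cpt2, Acadl and Plin2 the 3 libraries labelled TLR4ΔIEC all lay above the 3 WT libraries (called separated upwards below), a pattern found in 24.1% of all tested genes, and in no member was the order the opposite, against 3.53% of all tested genes. The plot of the TPM by library shows both the separated and the overlapping genes.

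**Figure D1:**
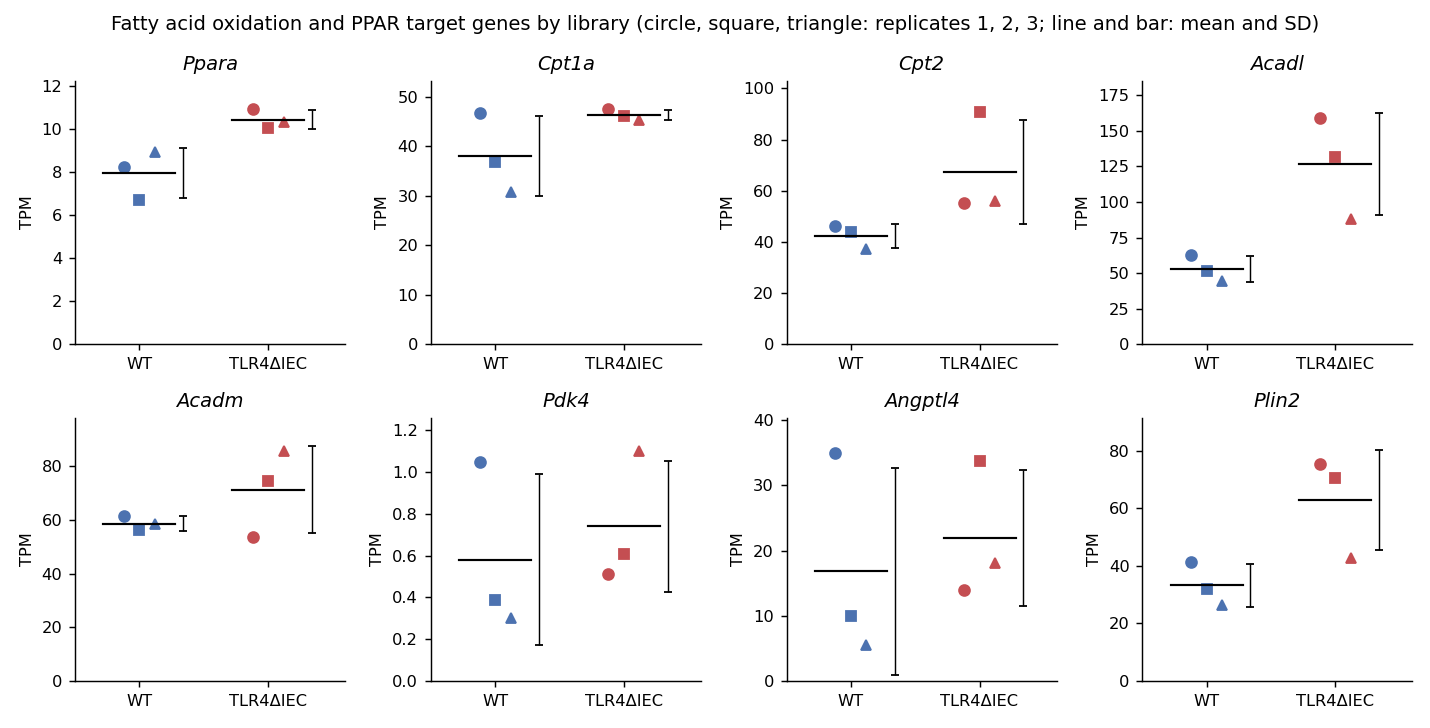
TPM (vertical axes, from 0) of the 8 genes in each WT and TLR4ΔIEC library, with the mean as a line and the SD as a bar (n = 3 each). Ppara, Cpt2, Acadl and Plin2 show no overlap between groups, and WT replicate 1 lies within or above the range of the libraries labelled TLR4ΔIEC for Cpt1a, Acadm, Pdk4 and Angptl4.

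Ppara (ENSMUSG00000022383, GRCm38 chromosome 15, 85734983 to 85802819, plus strand) encodes PPAR-alpha itself. Its TPM were 8.23, 6.68 and 8.92 in WT, against 10.9, 10.0 and 10.3 in those labelled TLR4ΔIEC. The groups did not overlap, but the step was small: 7.94 ± 1.15 against 10.4 ± 0.437 TPM (SD, n = 3 each), a log2 fold change of 0.36 (SE 0.16, adjusted p in limma 0.243). Ppara was a minor PPAR transcript in this tissue. Ppard, the ubiquitous isotype, took 83.7 ± 1.40% of the summed PPAR TPM in WT, against 86.4 ± 1.40% in TLR4ΔIEC, Ppara 9.84 ± 2.72% and 9.30 ± 0.863%, and Pparg, the isotype of fat cells and colon, 6.50 ± 1.64% and 4.27 ± 0.717%. Ppara and Pparg overlapped in WT (Pparg 3.37 to 8.52 TPM), so their order there is not beyond the spread, whereas Ppard was the highest of the 3 in each library, at 56.5 to 87.4 TPM in WT, against 89.8 to 102.0 TPM in TLR4ΔIEC. Of the 18 tested genes among PPAR receptors, RXRs and their partners none passed. Their median log2 fold change was 0.19, beside 0.16 over all tested genes. Against 24.1% upwards and 3.53% downwards over all tested genes, 6 of the 18 were separated upwards and none downwards. The most abundant were Esrra, an orphan receptor of mitochondrial genes (120 to 144 against 148 to 186 TPM), Ppard, and Creb3l3, a membrane-bound factor that partners PPAR-alpha in liver (76.4 to 129.1 against 49.3 to 79.2 TPM), whose log2 fold change of −0.65 had an adjusted p of 0.198.

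Cpt1a (ENSMUSG00000024900, chromosome 19, 3322334 to 3385733, plus strand) encodes the outer-membrane carnitine palmitoyltransferase, the entry step of long chains. Its TPM were 46.7, 36.9 and 30.7 in WT and 47.5, 46.2 and 45.4 in TLR4ΔIEC. The libraries labelled TLR4ΔIEC lay close together, and WT replicate 1 fell among them, so the groups overlapped (log2 fold change 0.30, SE 0.17, adjusted p = 0.369). Cpt1a supplied 94.1 to 98.7% of the TPM of the 3 CPT1 genes in any library, with the muscle form Cpt1b at 0.16 to 0.85 TPM and the brain form Cpt1c at 0.26 to 1.06 TPM. Cpt2 (ENSMUSG00000028607, chromosome 4, 107903981 to 107923610, minus strand), the inner-membrane partner, stood at 46.3, 43.9 and 37.2 TPM in WT, against 55.2, 90.9 and 56.1 TPM in TLR4ΔIEC. The groups were separate, with replicate 2 far above the other libraries labelled TLR4ΔIEC (log2 fold change 0.62, SE 0.22, 95% confidence interval 0.10 to 1.14, adjusted p = 0.178).

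Around these 2 enzymes, the wider list of fatty acid activation and carnitine transport had 13 tested genes. None passed, with a median log2 fold change of 0.32. Of the 13, 4 were separated upwards and 1 downwards, beside 24.1% and 3.53% of all tested genes. Picked after its values were seen, the carnitine-acylcarnitine carrier Slc25a20, which works between the 2 transferases, stood at 39.7, 26.3 and 23.0 TPM in WT, against 50.5, 68.4 and 75.0 TPM in TLR4ΔIEC (log2 fold change 1.12, adjusted p = 0.0982), and the carnitine importer Slc22a5 at 29.1, 19.0 and 17.4 against 34.0, 60.0 and 41.0 TPM (log2 fold change 1.01, adjusted p = 0.117). The single gene separated downwards was the acyl-CoA synthetase Slc27a2 (11.7 to 14.8 against 5.00 to 9.82 TPM, log2 fold change −0.86, adjusted p = 0.121). The most abundant genes of the list, the acyl-CoA binding protein Dbi, the synthetase Acsl5 and the fatty acid transport protein Slc27a4, overlapped between groups, with log2 fold changes of 0.36, −0.16 and 0.32.

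Acadl (ENSMUSG00000026003, chromosome 1, 66830839 to 66863277, minus strand), the long-chain acyl-CoA dehydrogenase, had the largest difference of the 8 genes. It stood at 62.7, 51.4 and 44.2 TPM in WT, against 159, 132 and 88.3 TPM in TLR4ΔIEC. Every library labelled TLR4ΔIEC was above the highest WT library, and the spread within the former was wide: 52.8 ± 9.30 against 127 ± 35.8 TPM, a ratio of means of 2.40. The estimate of log2 fold change was 1.22 (SE 0.24, 95% confidence interval 0.64 to 1.79), with an unadjusted p of 0.0015, rank 212 among 13458, and a limma adjusted p of 0.0940. Acadm (ENSMUSG00000062908, chromosome 3, 153922357 to 153944632, minus strand), the medium-chain enzyme, gave 61.5, 56.2 and 58.4 TPM in WT, the tightest group of any member in that genotype relative to its mean, and 53.7, 74.6 and 85.6 TPM in TLR4ΔIEC. Its groups overlapped because TLR4ΔIEC replicate 1 was the lowest of the 6 libraries (log2 fold change 0.25, SE 0.19, adjusted p = 0.489). The 2 enzymes ran in opposite order within TLR4ΔIEC, Acadl highest in replicate 1 and Acadm highest in replicate 3.

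A comparison within a library does not depend on how libraries are scaled. Of the summed TPM of the straight-chain dehydrogenases Acadvl, Acadl, Acadm and Acads, Acadl took 23.2, 22.9 and 21.3% in WT and 45.2, 30.3 and 24.5% in TLR4ΔIEC. The shares did not overlap, although that of TLR4ΔIEC replicate 3 lay close to the WT range. Shares without overlap were also found in other paralog families. Ppard (82.1 to 84.90% against 84.93 to 87.7%) and Plin2 lay higher in TLR4ΔIEC, and Pparg (4.90 to 8.18% against 3.45 to 4.77%) and Cpt1c lower. The share of Acadm was 22.8 to 28.1% against 15.2 to 23.7%, that of the very-long-chain enzyme Acadvl 26.7 to 30.9% against 18.4 to 27.3%, and that of the short-chain enzyme Acads 21.3 to 27.4% against 21.2 to 25.4%, and these 3 overlapped. In WT the 4 transcripts were of similar level, with shares of 22.5 to 28.6% on average, in the order Acadvl, Acadm, Acads, Acadl; neighbours in that order overlapped, and Acadvl was above Acadl in each WT library.

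**Figure D2:**
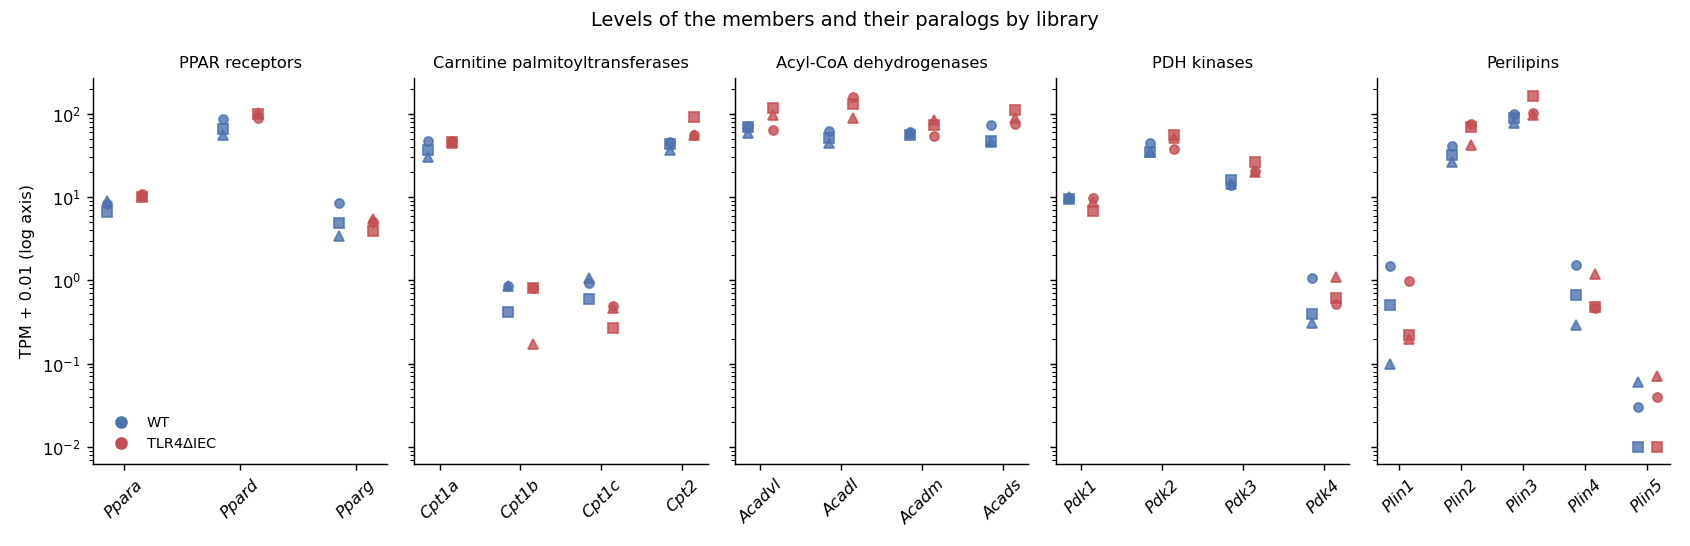
TPM + 0.01 on a log axis for the members and their paralogs in each library (circle, square and triangle are replicates 1, 2 and 3). Ppard exceeds Ppara, Cpt1a exceeds Cpt1b and Cpt1c, Pdk4 is the lowest of the 4 kinases, and Plin3 exceeds Plin2 in every library.

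Among 20 genes of mitochondrial beta-oxidation, all tested and Acadl and Acadm included, none passed. The median log2 fold change was 0.26, beside 0.16 over all tested genes. Where 24.1% of all tested genes were separated upwards and 3.53% downwards, 5 of the 20 were separated, all upwards. These were Acadl, Acads, Echs1, Etfa and Etfdh. Acads stood at 74.1, 47.8 and 46.5 TPM in WT, against 74.9, 111 and 90.3 TPM in TLR4ΔIEC (log2 fold change 0.72, adjusted p = 0.157). The hydratase Echs1 and the electron acceptors Etfa and Etfdh had smaller log2 fold changes of 0.32, 0.18 and 0.16. The most abundant genes were Hadh, the short-chain hydroxyacyl-CoA dehydrogenase (198 to 263 against 207 to 336 TPM), and the flavoprotein subunits Etfb (163 to 226 against 177 to 340 TPM) and Etfa (101 to 116 against 119 to 127 TPM).

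In the peroxisome, which shortens very long and branched chains, 18 genes were tested and none passed. All 18 had estimates above 0, as 9163 of all 13458 tested genes did. Separation upwards, found in 24.1% of all tested genes, was found in 6 of the 18 (list median 0.37). The most abundant, the sterol carrier thiolase Scp2, the thiolase Acaa1a and the isomerase Ech1, overlapped between groups (log2 fold changes 0.36, 0.20 and 0.39), as did the classical PPAR-alpha target Ehhadh (24.3 to 32.4 against 28.1 to 48.3 TPM). The 6 were Acot4, Acox2, Acox3, Acot8, Phyh and Pecr, with log2 fold changes of 0.38 for Pecr to 0.96 for Acot4. Acox3 and Phyh passed without TLR4ΔIEC replicate 1 (adjusted p = 0.0463 each), as did Slc27a2 (0.0450), in a fit where 367 of all 13379 tested genes passed.

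Ketone body genes had estimates on both sides of 0. Of 7 tested none passed, and 4 had estimates above 0 and 3 below (median 0.40). Beside 24.1% of all tested genes, 3 of the 7 were separated upwards, among them the ketone dehydrogenase Bdh1 and the transporter Slc16a1. Bdh1 stood at 41.5 to 46.8 TPM in WT, against 50.1 to 73.0 TPM in TLR4ΔIEC (log2 fold change 0.40, adjusted p = 0.254). The ketolytic transferase Oxct1 overlapped between groups, at 49.3 to 58.3 against 50.9 to 87.0 TPM.

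Pdk4 (ENSMUSG00000019577, chromosome 6, 5483351 to 5496309, minus strand) encodes a kinase that shuts pyruvate dehydrogenase when fat is burnt. It was near the lower limit of the table, at 1.05, 0.39 and 0.30 TPM in WT, against 0.51, 0.61 and 1.10 TPM in TLR4ΔIEC, and with a mean of 0.66 TPM it was not tested. The groups overlapped fully, and with no filter on level the fit gave a log2 fold change of 0.15 (SE 0.23, adjusted p in limma 0.812). It made up 0.503 to 1.51% of the TPM of the 4 kinases, against 54.6 to 64.3% for Pdk2, 20.1 to 30.3% for Pdk3 and 7.63 to 16.7% for Pdk1, so that the order Pdk2, Pdk3, Pdk1, Pdk4 held in all 6 libraries. Of 11 tested genes of pyruvate dehydrogenase and its control none passed (list median 0.11). Pdk3 and the phosphatase Pdp1 were separated upwards (log2 fold changes 0.56 and 0.85) and the regulatory subunit Pdpr downwards (−0.20). Over all tested genes 24.1% were separated upwards and 3.53% downwards. The abundant subunits Pdha1, Pdhb and Dld had log2 fold changes of 0.04, 0.11 and 0.07.

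Angptl4 (ENSMUSG00000002289, chromosome 17, 33773750 to 33781830, minus strand), secreted to inhibit lipoprotein and pancreatic lipase and induced by fasting and by fatty acids through PPARs, was the most variable of the tested members. It stood at 35.0, 9.93 and 5.58 TPM in WT, against 14.0, 33.7 and 18.1 TPM in TLR4ΔIEC. The highest of all 6 values was WT replicate 1 and the lowest WT replicate 3, so the groups overlapped (log2 fold change 0.65, SE 0.62, 95% confidence interval −0.82 to 2.11, adjusted p = 0.596). Without WT replicate 1 the log2 fold change was 1.34 (adjusted p = 0.184), and without WT replicate 3 it was 0.11 (adjusted p = 0.948). Its enzyme partner Lpl, lipoprotein lipase, was low at 0.64 to 2.20 against 1.30 to 2.27 TPM. Among 10 tested genes of lipase control none passed, and the median was 0.02. Where 24.1% of all tested genes were separated upwards and 3.53% downwards, only the chaperone Lmf1 of these 10 was separated (upwards, log2 fold change 0.18). The lipase activator Apoc2 and inhibitor Apoc3, the most abundant of them, had log2 fold changes of −1.09 and −0.63, and Sel1l, which helps lipase leave the endoplasmic reticulum, of 0.20.

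Plin2 (ENSMUSG00000028494, chromosome 4, 86648386 to 86670060, minus strand), the droplet coat protein whose level tracks stored triglyceride, stood at 41.2, 32.1 and 26.3 TPM in WT, against 75.4, 70.4 and 42.9 TPM in TLR4ΔIEC. The groups were separate by a narrow margin between WT replicate 1 and TLR4ΔIEC replicate 3, and the means were 33.2 ± 7.51 and 62.9 ± 17.5 TPM (log2 fold change 0.88, SE 0.26, 95% confidence interval 0.27 to 1.50, adjusted p = 0.137). Plin3, a coat protein of nascent droplets, was the higher perilipin in each library, and the share of Plin2 in all perilipin TPM was 24.9 to 28.6% in WT and 29.9 to 42.1% in TLR4ΔIEC. Plin1 and Plin4 of fat cells and Plin5 of oxidative tissue reached at most 1.51 TPM. Of 14 tested droplet genes none passed (median 0.18, beside 0.16 over all tested genes). Where 24.1% of all tested genes were separated upwards and 3.53% downwards, 4 of the 14 were separated, all upwards. Beside Plin2 these were the lipase Pnpla2 (44.2 to 59.5 against 74.4 to 91.8 TPM, log2 fold change 0.65), its activator Abhd5 (9.77 to 13.1 against 16.4 to 28.4 TPM, log2 fold change 0.97) and the acyltransferase Mogat2 (0.38). The other abundant genes, the acyltransferase Dgat1 and the droplet protein Cideb, overlapped, with log2 fold changes of −0.05 and 0.35.

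**Figure D3:**
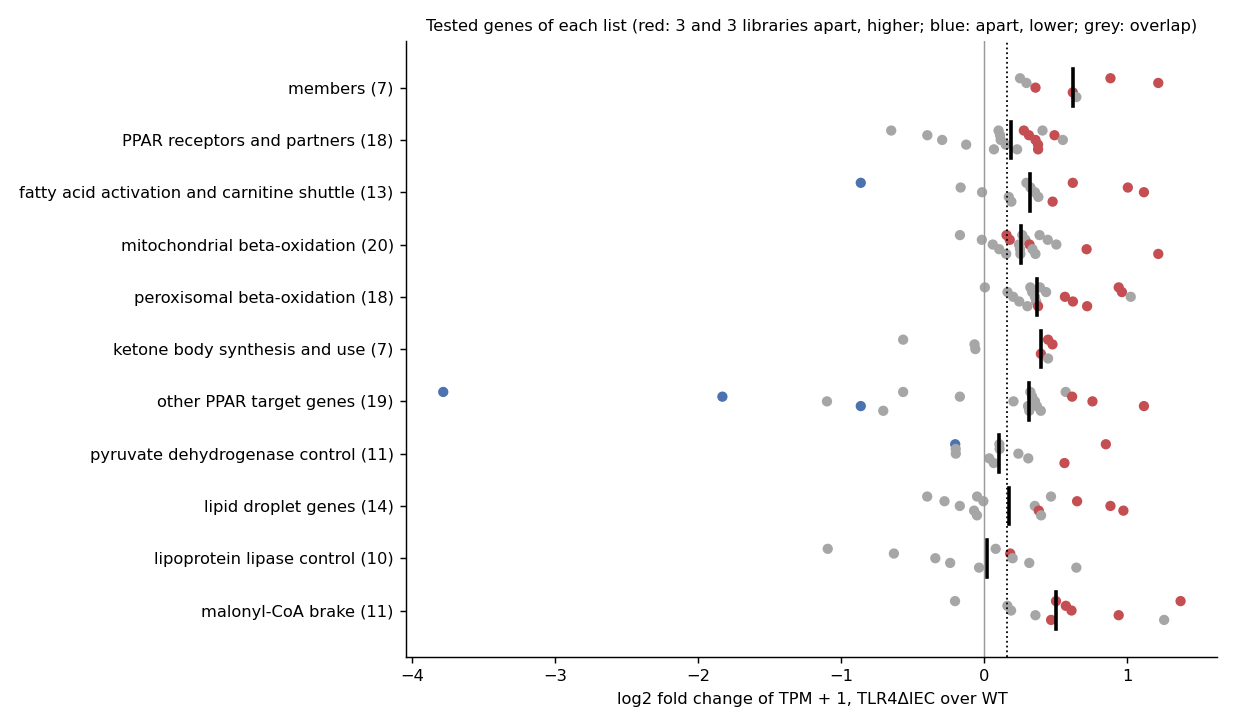
Log2 fold change of TPM + 1 (horizontal axis, TLR4ΔIEC over WT) of each tested gene, by list, with the number tested in brackets, a bar at the list's median and a dotted line at the median of all tested genes, 0.16. No gene shown passed the threshold, and the widest spread is among the other PPAR target genes, from −3.78 for Fabp1 to 1.12 for Slc25a20.

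Other genes known as PPAR targets lay on both sides of 0. Of 27 listed, 8 had a mean under 1 TPM, among them the strongest liver targets Cyp4a10 and Cyp4a14, fatty acid hydroxylases, at 0.04 TPM or less in every library. None of the 19 tested passed, and the median was 0.32. Beside 24.1% of all tested genes upwards and 3.53% downwards, 3 were separated upwards (Slc25a20, Txnip and Vnn1) and 3 downwards (Fabp1, Slc27a2 and Acot12). Fabp1, a fatty acid binding protein of the proximal gut, stood at 361, 797 and 115 TPM in WT, against 8.50, 17.4 and 72.3 TPM in TLR4ΔIEC (log2 fold change −3.78, adjusted p = 0.108), and the acyl-CoA thioesterase Acot12 at 2.63, 7.75 and 4.94 against 0.31, 0.72 and 0.86 TPM (log2 fold change −1.83, adjusted p = 0.0935). The redox regulator Txnip and the pantetheinase Vnn1 had log2 fold changes of 0.76 and 0.62. The most abundant targets beside Fabp1, the binding protein Fabp2 and the uncoupler Ucp2, overlapped (log2 fold changes −0.71 and 0.40). In the proximal list given above 3 genes passed the threshold, and not in 1 direction: Lct, lactase, and Gata4, a transcription factor, were lower (adjusted p in limma 0.0316 and 0.0494), and S100g, a calcium-binding protein, was higher (log2 fold change 3.00, adjusted p = 0.0350).

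Promoter windows from RefSeq (GRCm38.p6, 250 bases before to 50 after a start) were found for 7 members, Angptl4 having none in the table. They were searched on both strands for the core motif AGGTCA and for its direct repeat with 1 base between, AGGTCANAGGTCA, allowing 2 mismatches in the 12 defined bases; a repeat can contain the core motif. The core motif lay in 3 of the 7 windows, those of Acadm, Cpt1a and Plin2, against 16.3% of all 32851 windows, and the repeat in 1, that of Plin2, against 3.86%. Acadl, Cpt2 and Ppara, separated like Plin2, held neither, which says only that these letters are not in this window. Of the 6 separated PPAR targets above, Fabp1, Acot12 and Slc25a20 held the repeat, so it was present in genes with estimates in both directions. Over the whole list of other PPAR targets it lay in 7 of 20 windows (35.0%), which came from 18 genes. Windows were counted singly, so a gene with several starts, as Aqp7, can count more than once. The 7 windows included those of Cd36 and Aqp7, which overlapped between groups, and of Ucp3, which was not tested. The repeats of Plin2, Fabp1, Acot12 and Slc25a20 are printed 5′ to 3′ on the strand that carries the motif, with the matched 13 bases in capitals. Each was kept for having at most 2 mismatches, so their likeness was set by the search.
Plin2, chr4:86670264-86670292, plus strand: tctgacttAGGTCAGGGGTCCtgaaagct
Fabp1, chr6:71199804-71199832, minus strand: tcagatatAGGCCATAGGTCAgtgattgt
Acot12, chr13:91741403-91741431, minus strand: tgcttaggAGGTGAGAGGTCAgggtccta
Slc25a20, chr9:108662134-108662162, plus strand: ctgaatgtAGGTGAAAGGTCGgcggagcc
The core motif of the Cpt1a window, which is not part of a repeat, is shown for comparison with its 6 bases in capitals.
Cpt1a, chr19:3323196-3323223, minus strand: ctgcggggaggAGGTCAgtaaggaaact
The matches in Fabp1 and Acot12 had 1 mismatch and those in Plin2 and Slc25a20 had 2. Of the printed repeats, flanks included, those of Fabp1, Acot12 and Slc25a20 overlap an annotated exon and that of Plin2 does not. A match describes letters and not binding.

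A mixed list around malonyl-CoA, the inhibitor of CPT1, holds enzymes of fatty acid synthesis, desaturases and subunits of the energy sensor AMPK. Its median was 0.50, and none of 11 tested genes passed the threshold. Where 24.1% of all tested genes were separated upwards and 3.53% downwards, 6 of the 11 were separated, all upwards. The 6 were the carboxylase Acaca, the synthase Fasn, the desaturase Scd2 and the AMPK subunits Prkaa1, Prkaa2 and Prkab1. Scd2 stood at 37.1, 43.1 and 70.7 TPM in WT, against 116, 193 and 91.7 TPM in TLR4ΔIEC (log2 fold change 1.37, adjusted p = 0.111), and Prkab1 at 43.3, 30.8 and 29.2 against 65.3, 68.6 and 64.3 TPM (log2 fold change 0.94, adjusted p = 0.0920), the smallest adjusted p among the 10 metabolic lists, marker lists aside. Acaca and Fasn had log2 fold changes of 0.61 and 0.50, and the AMPK subunit Prkag1, the third most abundant, of 0.16. Counted once each, the 10 lists held 150 genes beside the members, of which 127 were tested and none passed, 35 (27.6%) were separated upwards and 4 (3.15%) downwards, shares near those of all tested genes, with a median of 0.27.

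Each other scaling lowered the estimates of the tested members and the median of all tested genes, though by unlike amounts. After quantile normalization the estimate of Cpt1a went from 0.30 to 0.00 and that of Acadm from 0.25 to −0.07. Alpha-defensin genes held 25.3 to 28.7% of all TPM in WT, against 5.21 to 18.4% in TLR4ΔIEC. The median of all tested genes was 0.16 with the deposited TPM, 0.03 after median-of-ratios scaling, 0.02 after quantile normalization, 0.00 without the 20 highest genes and −0.13 without alpha-defensin, mitochondrial and 18S-like genes. Of all genes past the threshold 6 were higher and 10 lower with the deposited TPM, against 3 and 15, 4 and 14, 3 and 8, and 3 and 11 under these scalings in turn, while 98 were higher and 38 lower with array weights. Relative to the medians, Acadl lay at 0.89 to 1.06, Plin2 at 0.56 to 0.73, Cpt2 at 0.29 to 0.46 and Ppara at 0.19 to 0.21, whereas Acadm lay at −0.09 to 0.09 and Cpt1a at −0.02 to 0.14. After scaling to the geometric mean of 3 epithelial genes, Epcam, Cdh1 and Vil1, which was 561 to 597 TPM in WT, against 769 to 997 TPM in TLR4ΔIEC, the median of all genes was −0.33, 2 genes past the threshold were higher and 19 lower, and only Acadl among the members was separated upwards, against 1.67% of all genes tested there. On that scale Acadl stood at 73.8, 63.3 and 55.5 in WT, against 136, 93.0 and 80.7 in TLR4ΔIEC (log2 fold change 0.65, adjusted p = 0.233). Plin2 had a log2 fold change of 0.32, Cpt2 of 0.06, and Ppara, Cpt1a and Acadm turned negative (−0.16, −0.26 and −0.31). Relative to the median of −0.33, Acadl lay at 0.98, Plin2 at 0.66, Cpt2 at 0.39, Ppara at 0.18, Cpt1a at 0.07 and Acadm at 0.02.

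**Figure D4:**
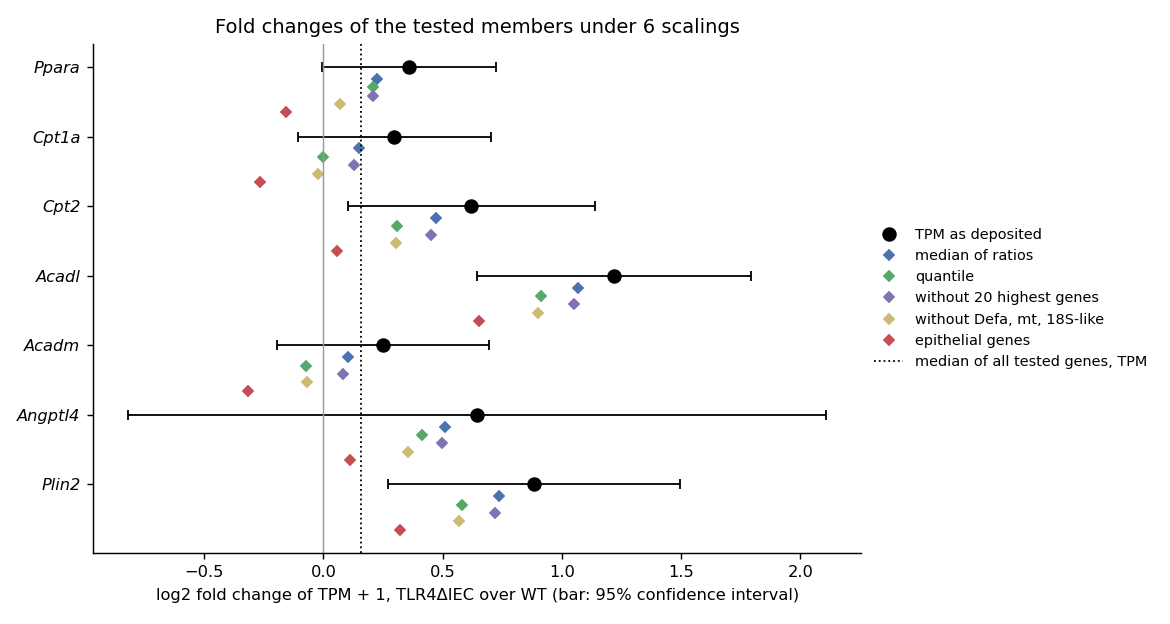
Log2 fold change of TPM + 1 (horizontal axis, TLR4ΔIEC over WT) of the 7 tested genes, as deposited with its 95% confidence interval (black) and under 5 other scalings (diamonds), with the median of all tested genes as a dotted line. Acadl, Plin2, Cpt2 and Angptl4 stay above 0 under each scaling drawn, whereas Acadm, Cpt1a and Ppara fall below 0 under at least 1.

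The members differed in how closely they ran together. Over log2 values of 6 libraries, which share group, scaling and depth, Acadl and Plin2 ran together (Pearson r = 0.98, and 0.98 for deviations from the group means), and Cpt1a with Angptl4 (0.85 and 0.86). Acadl and Acadm had an r of 0.22 over the libraries and −0.71 within the groups, and Ppara had an r of 0.24 to 0.77 with the other 7 genes over the libraries and of −0.39 to 0.03 within the groups. Over the libraries every pair of members had a positive r, from 0.16 for Acadm and Plin2. By the same measure the genes most like Ppara over the 6 libraries were Grin1os, Crim1 and Slc10a5 (r = 0.99 each), among 107 of 12185 genes with r above 0.9, and those most like Acadl were Krtap3-1, Krt7 and Laptm4a (r above 0.99), among 592. With so few libraries many genes reach such values, and they are given as a description.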

How the data were processed

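Total RNA of 6 intestines was sequenced. HISAT, RSEM, fastp and the build GRCm38.p5 are listed without settings in the submitters' processing notes, and no source used here says if counting used strand. What the authors deposited is 1 TPM value for each gene in each library, per the file headers. Their group means were not used. TPM keep no read totals, so depth and counting error are unknown. Groups and replicate numbers come from the titles. The members, lists and tests were chosen with earlier results of these data known.

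Genes averaging 1 TPM or more were tested on log2(TPM + 1), which understates the change of low genes, with limma 3.58.1 in R 4.3.3 (intensity trend, genotype as the only term, two-sided, Benjamini-Hochberg over 13458 genes, threshold 0.05), after the fit was tested on simulated data. Libraries of a genotype correlated at 0.939 to 0.977, so none was a copy. "Separated" means that all 3 libraries of one group lie above those of the other. Named were the members, their paralogs, the 3 most abundant genes of each list (some are not reported here) and, after their values were seen, separated and other genes. Coordinates are from GENCODE M21 (GRCm38). The fit was repeated with a pseudocount of 0.1 or 5 TPM, without the filter, with genes averaging 5 TPM or more, 4 scalings, 3 variance models, a replicate block, each library left out and, added after seeing the data, scaling to epithelial genes. Figures used matplotlib 3.10.9.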

Additional observations from a re-analysis of the deposited data

How the results depend on the processing

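None of the 7 tested genes passed under any of the 19 alternatives, nor did Pdk4, which was tested only with no filter. The smallest adjusted p was 0.0529, for Acadl with array weights. Their median log2 fold change was 0.62 and stayed above 0; it was 0.31 after quantile normalization, 0.30 without alpha-defensin, mitochondrial and 18S-like genes and 0.0565 after scaling to epithelial genes, and 0.38 to 0.73 with a library left out. The number of all tested genes past the threshold, 16, was 0 with no filter (3377 in limma at unadjusted p under 0.05), 7 among genes averaging 5 TPM or more, 136 with array weights (98 higher, 38 lower) and 1 with the replicate block. With a library left out it ran from 0 (without WT replicate 2 or TLR4ΔIEC replicate 2, with 1681 and 2651 at an unadjusted p under 0.05) to 367 (without TLR4ΔIEC replicate 1, 262 higher and 105 lower), with 32 without WT replicate 1 (20 higher, 12 lower), 3 without WT replicate 3 and 5 without TLR4ΔIEC replicate 3. The cause was not tested. The labels do not say that a replicate number marks a shared mouse, litter or batch. Deviations of same-numbered libraries correlated at −0.04, 0.04 and 0.12, and those of other-numbered libraries at −0.15 to 0.11. The block gave Acadl an adjusted p of 0.108 in limma. Depth is unknown, so levels near that of Pdk4 carry an unknown counting error.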

Other observations

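Chosen after the values were seen, WT replicate 1 was the highest of the WT libraries in 7 of the 8 genes, the exception being Ppara, and in 42.7% of all tested genes. It also had the highest Angptl4 of the 6 libraries. In the same library the smooth muscle list summed to 737 TPM, against 281 and 315 TPM in the other WT libraries, and Cyp3a11, a drug-metabolizing cytochrome, stood at 92.7 TPM, against 11.4 and 13.8 TPM. Fgf15, the bile acid-induced hormone of the ileum, stood at 0.70 TPM there and at 33.2 and 27.6 TPM in the other WT libraries. Similar values occurred in libraries labelled TLR4ΔIEC: Fgf15 stood at 1.40 TPM in replicate 1 and at 28.5 and 20.3 TPM in the others, and in replicate 3 Cyp3a11 stood at 77.3 TPM and the smooth muscle list summed to 697 TPM.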
